A study of Mus musculus with 2 samples.

Results

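The integrin and laminin genes of the mouse aorta were examined across cell types in 2 single-cell RNA-seq libraries. The list holds 36 genes, taken by symbol from the 32285 genes of the count matrices. It comprises integrin alpha chains in 5 groups by binding partner, 8 integrin beta chains, 5 laminin alpha chains and 5 laminin beta or gamma chains. The study asked how CD45, the leukocyte tyrosine phosphatase encoded by Ptprc, acts in the endothelial cells (EC) of atherosclerotic vessels. Both groups were mice of C57BL/6 background that lacked ApoE, an apolipoprotein that clears cholesterol-rich particles, and both were fed a Western diet. The group called WT carried no further deletion. The group called EC-iCD45KO also carried a tamoxifen-inducible deletion of CD45 limited to endothelial cells. Each group had 1 library, prepared from aortic cells bound to magnetic beads against CD31, an endothelial surface protein. The Cre driver, the age and sex of the mice, the timing of tamoxifen and any pooling of animals are not given in the sources used here.

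Integrins are receptors made of 1 alpha and 1 beta chain that span the cell membrane and tie the cytoskeleton to the extracellular matrix or to other cells. Laminins are secreted trimers of an alpha, a beta and a gamma chain that form the sheet-like network of basement membranes, on which endothelial and smooth muscle cells sit. In vessels the laminin alpha4 and alpha5 chains are known as the endothelial forms, the alpha2 chain is known from muscle and mesenchymal cells, and leukocytes carry the beta2 and beta7 integrins with which they bind the vessel wall.

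Expression was counted in UMIs, the molecular barcodes that let each captured RNA molecule be counted once. UMIs were summed over the cells of 1 cell class in 1 library and scaled to a total of 1000000, which gives CPM. Differences are log2 ratios of EC-iCD45KO over WT. Intervals in parentheses are 95% intervals and cover counting error only. With 1 library per group no difference had a replicate check, no test was possible, and the deletion cannot be told apart from any difference between the preparations. "Past 2-fold" is a size, not a test, and was read only for genes whose mean over both libraries reached 5 CPM. Levels are compared for 1 gene across classes and not between genes.

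The libraries held 92058043 and 88967918 UMIs in 39849 and 30278 barcodes, of which 35553 WT and 26064 EC-iCD45KO cells were kept. Cells fell into 27 clusters made without the members, and 21 clusters received a class name from marker genes. Despite the CD31 beads, only 9.86% (9.56 to 10.2) of the WT cells and 17.4% (17.0 to 17.9) of the EC-iCD45KO cells were EC-like. B-like cells went from 5806 to 335 and T/NK-like cells from 3856 to 438, whereas macrophage-like cells went from 2396 to 5641. The libraries shared 340 barcodes, 0.853% of those in WT, and cells with a shared barcode were no more alike (median correlation 0.386) than shifted pairs (0.385). The targeted gene Ptprc stood at 274 CPM in WT and 113 CPM in EC-iCD45KO in EC-like cells, giving a log2 ratio of -1.28 (-1.38 to -1.18). It was also lower in SMC-like (smooth muscle) cells, at -1.0 (-1.11 to -0.89), in fibroblast-like cells, at -1.44 (-1.53 to -1.34), and in macrophage-like cells, at 456 and 263 CPM or -0.80 (-0.85 to -0.74), all of which lie outside the deletion. In T/NK-like cells it was lower as well, with the EC-like level at 24.7% of the T/NK-like level in WT and 13.2% in EC-iCD45KO. In 2 other leukocyte classes it went the other way. It stood at 753 and 1253 CPM in B-like cells, at 0.74 (0.65 to 0.82), and at 926 and 1736 CPM in neutrophil-like cells, at 0.91 (0.78 to 1.03).

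Of the 36 members, 26 had their highest level in the same one of 9 classes in both libraries, and 10 did not. No such share over all genes is given here. Among the 26, Itga9, Itgb3, Lamc1 and Itgad were not apart from the next class beyond counting error in either library. Itgad stood at only 2.88 CPM in WT and 1.04 CPM in EC-iCD45KO in its highest class. Among the laminin chains, Lama3 and Lama5 were highest in EC-like cells, Lama2 in fibroblast-like cells, and Lama4 in lymphatic EC-like cells. Lama5, at 37.7 and 50.4 CPM, was not apart from SMC-like cells, at 34.4 and 47.7 CPM, beyond counting error. Lama4 reached 243 CPM in WT and 310 CPM in EC-iCD45KO in the lymphatic EC-like class, against 71.8 and 120 CPM in EC-like cells. Lama1, the alpha chain of early embryonic basement membranes, had a single UMI among EC-like cells in either library and none in fibroblast-like cells. Lamb2, the beta chain of mature vessel and muscle basement membranes, and Lamc3 were highest in SMC-like cells.

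**Figure D1:**
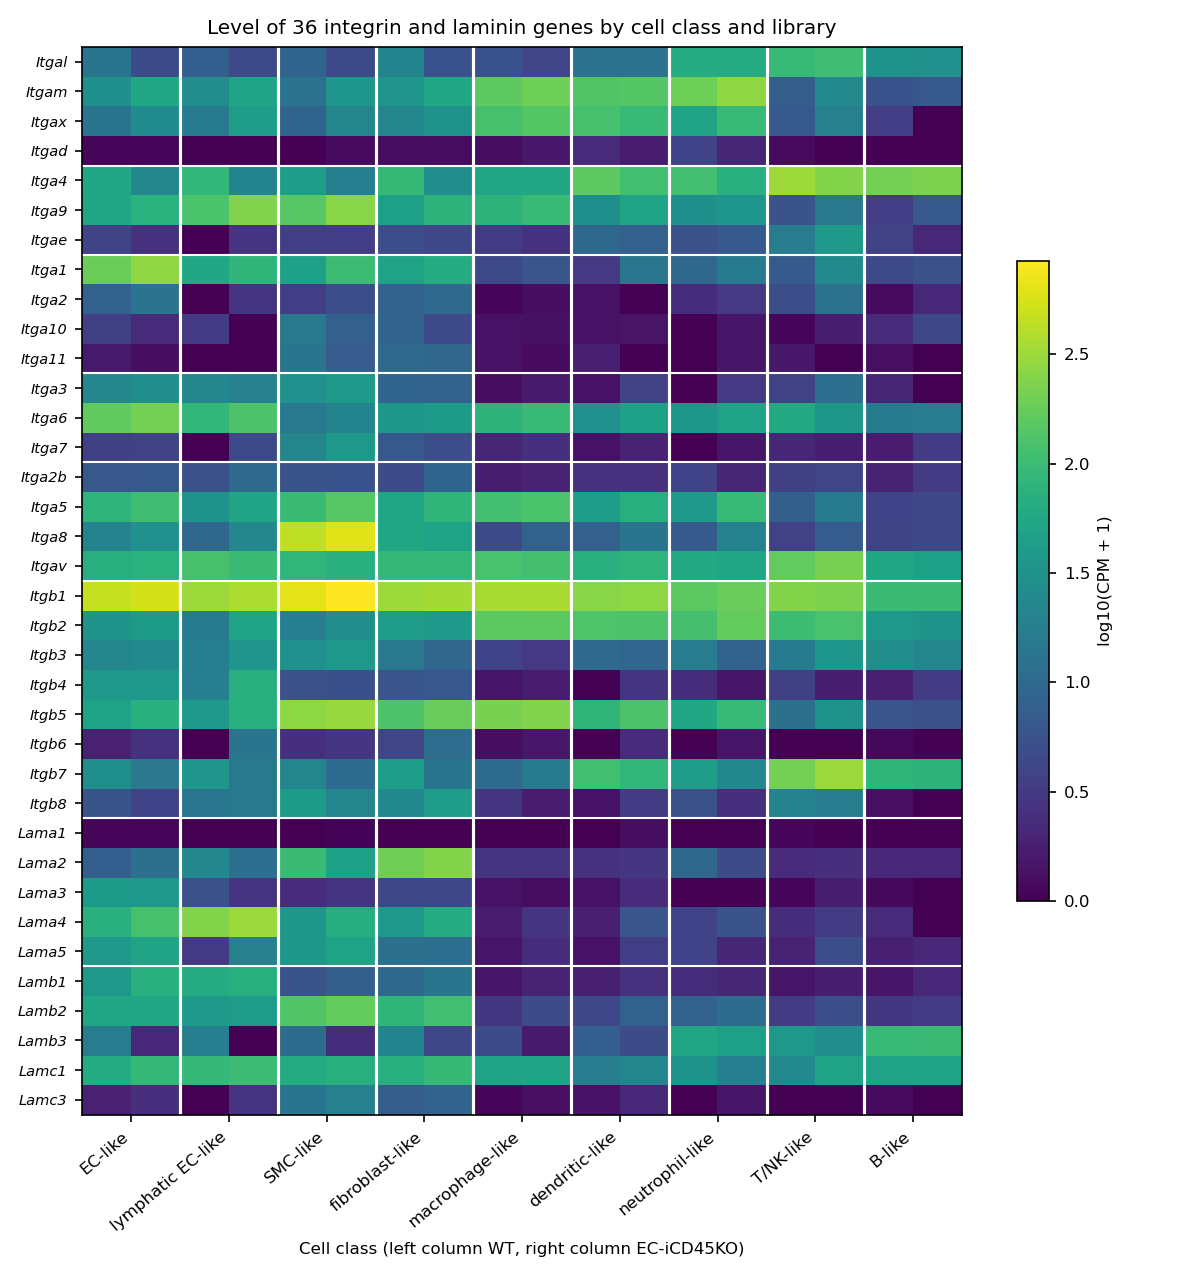
Level of each of the 36 members (rows) in 9 cell classes, with WT on the left and EC-iCD45KO on the right within each class. Colour gives log10(CPM + 1) and is to be read along a row, since levels of different genes are not scaled to gene length. Itga1 and Itga6 are brightest in EC-like cells, Itga8 in SMC-like cells, Lama2 in fibroblast-like cells, and Itga4 and Itgb7 in T/NK-like cells.

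The integrin alpha chains divided among the classes in the same way. Itga1, which binds collagen and also laminin with beta1, was highest in EC-like cells, at 188 CPM in WT and 275 CPM in EC-iCD45KO. Lymphatic EC-like cells came next in WT at 56.5 CPM, and macrophage-like cells had 3.46 and 4.97 CPM. Itga6, the laminin-binding alpha chain of endothelium, was also highest in EC-like cells, at 161 and 205 CPM. Itga8, which binds nephronectin and other ligands with an RGD tripeptide, was highest in SMC-like cells, at 449 and 606 CPM, against 55.5 and 48.9 CPM in fibroblast-like cells. Itga3 and Itga7, the other laminin-binding alpha chains, were highest in SMC-like cells in both libraries. Itgb1, the common partner of most of these alpha chains, was highest in SMC-like cells at 641 and 849 CPM and lowest of the 9 classes in B-like cells at 98.2 and 98.7 CPM.

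The leukocyte integrins were highest in leukocyte classes. Itgal, the alpha chain of LFA-1, was highest in T/NK-like cells at 92.9 CPM in WT and 108 CPM in EC-iCD45KO. Itgam, the alpha chain of Mac-1, was highest in neutrophil-like cells at 192 and 276 CPM, and Itgax, known as CD11c, in macrophage-like cells at 119 and 144 CPM. In WT neither stood apart from the next class beyond counting error: macrophage-like cells had 159 CPM of Itgam and dendritic-like cells 118 CPM of Itgax. Itga4, whose product binds VCAM-1 with beta1 and MAdCAM-1 with beta7, and Itgb7 were both highest in T/NK-like cells, at 313 and 243 CPM and at 209 and 311 CPM, with Itga4 in EC-iCD45KO not apart from its B-like level. Itgae, the partner of beta7 on T cells of epithelia, stood at 16.2 and 37.9 CPM in the same class. The make-up of the T/NK-like class, with 3856 WT and 438 EC-iCD45KO cells, differed between the libraries. Its cluster led by Dapl1 and Lef1 held 1668 and 84 cells, and that led by Trdc and Il17a held 538 and 149. Lamb3, a laminin chain known from epithelial basement membranes, was highest in B-like cells, at 92.3 and 98.7 CPM, with neutrophil-like cells next in WT at 53.3 CPM.

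Promoters of 5 of these genes are shown as the 250 bases before the gene start from RefSeq on GRCm38.p6. They were chosen because Itga4, Itgb7 and Lamb3 were lower and Itgam and Itgax were higher in the EC-like cells of EC-iCD45KO, as given further on. Capitals mark GAGGAA, or TTCCTC on the other strand, the purine-rich core of the PU box bound by a myeloid and B-cell ETS factor.
Itga4 (chr2:79255176-79255425, plus strand): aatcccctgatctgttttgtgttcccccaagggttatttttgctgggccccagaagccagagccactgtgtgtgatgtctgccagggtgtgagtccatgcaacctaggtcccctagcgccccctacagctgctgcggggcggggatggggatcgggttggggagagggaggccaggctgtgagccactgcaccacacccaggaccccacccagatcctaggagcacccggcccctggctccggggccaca
Itgb7 (chr15:102231936-102232185, minus strand): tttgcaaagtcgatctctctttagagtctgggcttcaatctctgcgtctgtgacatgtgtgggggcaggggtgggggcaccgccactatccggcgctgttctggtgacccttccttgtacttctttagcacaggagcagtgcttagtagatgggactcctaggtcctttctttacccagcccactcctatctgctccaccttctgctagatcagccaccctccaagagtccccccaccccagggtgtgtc
Itgam (chr7:128062390-128062639, plus strand): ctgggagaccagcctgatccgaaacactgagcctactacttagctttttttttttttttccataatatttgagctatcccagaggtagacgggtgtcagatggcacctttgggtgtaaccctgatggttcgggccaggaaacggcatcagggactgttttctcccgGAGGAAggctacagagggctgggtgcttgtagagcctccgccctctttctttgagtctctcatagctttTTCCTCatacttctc
Itgax (chr7:128129300-128129549, plus strand): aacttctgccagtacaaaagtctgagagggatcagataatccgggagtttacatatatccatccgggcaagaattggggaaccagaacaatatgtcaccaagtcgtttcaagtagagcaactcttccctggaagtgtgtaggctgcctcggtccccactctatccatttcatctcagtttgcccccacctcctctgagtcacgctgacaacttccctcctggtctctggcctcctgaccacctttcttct
Lamb3 (chr1:193301744-193301993, plus strand): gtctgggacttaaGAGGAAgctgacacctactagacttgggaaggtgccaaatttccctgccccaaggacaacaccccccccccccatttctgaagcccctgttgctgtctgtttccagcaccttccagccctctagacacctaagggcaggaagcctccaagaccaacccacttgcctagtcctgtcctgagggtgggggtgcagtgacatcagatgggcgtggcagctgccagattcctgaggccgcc
The motif occurred 2 times in the Itgam window and 1 time in that of Lamb3, and these letters were not in the windows of Itga4, Itgb7 and Itgax. It was found in 13 of 26 windows of the 23 members present in the RefSeq table, beside 23.3% of all 32851 windows of the same length. A second RefSeq start of Lamb3 had no match. Both RefSeq starts of Lamb3 lie inside the longer span that GENCODE gives the gene. A match describes letters and not a bound site.

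Chains that pair in 1 protein were compared over these 9 classes, as a description with no test, since the classes of a library share its depth and free RNA. Itga4 and Itgb7 had a Spearman correlation of 0.95 in WT and 0.92 in EC-iCD45KO. Lama4 and Lamb1 gave 0.87 and 0.85, and Lama2 and Lamb2 gave 0.88 and 0.97. Itga4 and Itgb1 gave -0.88 in both libraries. Itgam and Itgb2 gave 0.62 and 0.75. Itgax with Itgb2, Itga8 with Itgb1 and Itga1 with Itgb1 gave 0.53 to 0.77. In 3 further pairs the correlation was lower: Itgal and Itgb2 gave 0.12 and 0.22, Itgav and Itgb5 0.17 and 0.07, and Itga6 and Itgb4 0.45 and 0.22.

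In EC-like cells, 27 of the 36 members reached the minimum of 5 CPM. Of these, 2 were at least 2-fold higher in EC-iCD45KO (Itgax and Lamb1), where 1.51% of all 11004 genes at the minimum were. Another 4 were at least 2-fold lower (Itga4, Itgal, Itgb7 and Lamb3), where 3.24% of all genes were. The median log2 ratio of the 27 members was 0.35, beside -0.01 over all genes at the minimum. The log2 ratio was above 0 for 21 members and below 0 for 6, where 47.98% of all genes at the minimum were above 0. The counting interval lay wholly above 0 for 17 members and wholly below 0 for 4, and no such share over all genes is given here. The 2 higher members lay at 1.01 and 1.03, close to the 2-fold line, and their number went to 1 or 0 under 6 of the alternative settings. Of the 4 lower members, Itgb7, at -1.04, ranged from -1.26 to -0.77 over the alternatives, so it was not past 2-fold under all of them.

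**Figure D2:**
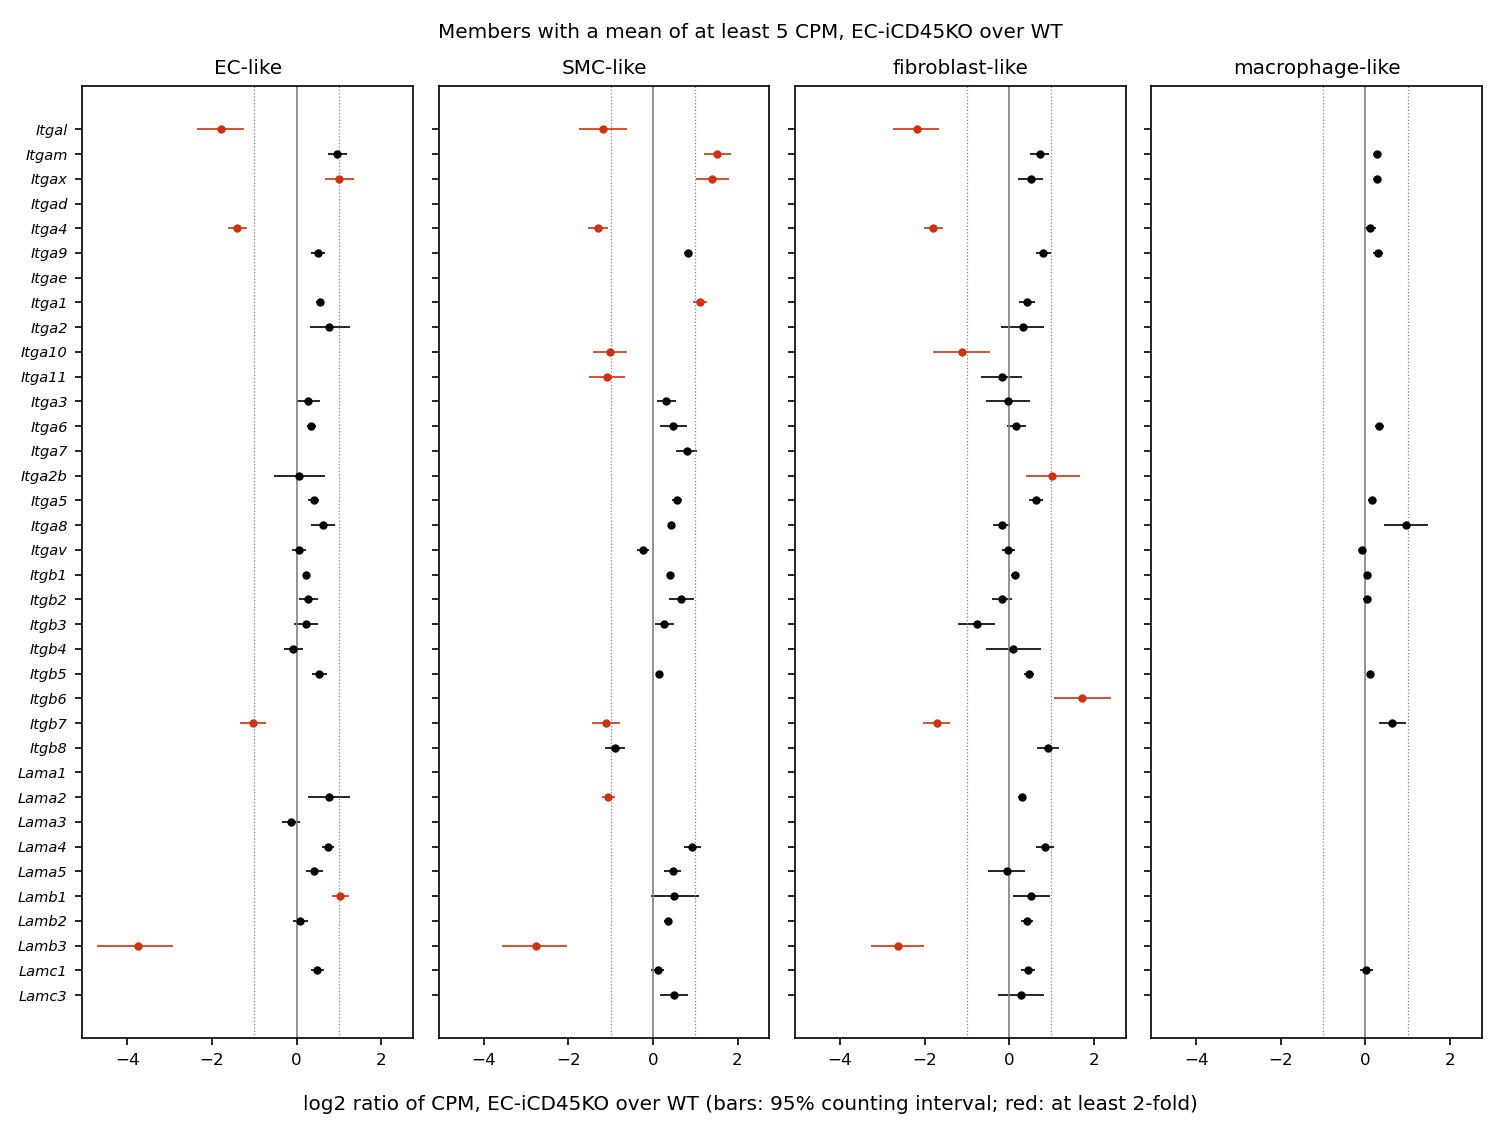
Log2 ratio of CPM, EC-iCD45KO over WT (x axis), for the members (rows) that reached a mean of 5 CPM in each of 4 cell classes. Bars are 95% counting intervals, dotted lines mark 2-fold and red marks members past it. In EC-like cells most points lie right of 0, while Itga4, Itgal, Itgb7 and Lamb3 lie left of the 2-fold line in EC-like, SMC-like and fibroblast-like cells alike.

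Among the laminin ligands, the chains of the endothelial laminins were higher in the EC-like cells of EC-iCD45KO, though not in this class alone. Lama4 stood at 71.8 CPM in WT and 120 CPM in EC-iCD45KO, giving a log2 ratio of 0.73 (0.59 to 0.88). Lamb1, its usual beta partner, stood at 35.1 and 71.5 CPM, log2 ratio 1.03 (0.83 to 1.23). Lamc1, the gamma chain shared by most laminins, stood at 63.1 and 88.2 CPM, log2 ratio 0.48 (0.33 to 0.64). Lama5 was higher by 0.42 (0.21 to 0.62). The chains Lama3 and Lamb2 did not follow them: Lama3 gave -0.13 (-0.35 to 0.09) and Lamb2 0.09 (-0.09 to 0.27), both within counting error of 0. In the EC-like class SMC markers summed to 1719 and 2282 CPM, a log2 ratio of 0.41, and pericyte markers to 109.9 and 151 CPM, a ratio of 0.45, and their part in these differences was not tested. A group of 27 EC-like cells of EC-iCD45KO, which formed a cluster with no WT cell under the stricter cell filter, had Lamb1 among its leading genes and held 8.49% of the Lamb1 UMIs of the class in that library. Without these cells, a comparison added after seeing the data, Lamb1 gave 0.92, Lama4 0.68 and Lamc1 0.45. Outside the EC-like class, Lama4 gave 0.93 in SMC-like and 0.84 in fibroblast-like cells, and Lamb1 gave 0.5 and 0.52. Lamc1 gave 0.11 and 0.44 in these classes, and Lama5 0.47 and -0.06. Lama2, known from muscle and mesenchymal cells, was also higher in EC-like cells, at 0.76.

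Of the matrix-binding integrins in EC-like cells, most alpha chains at the minimum stood higher. Itga1 gave a log2 ratio of 0.55 (0.46 to 0.64), Itga6 of 0.35 (0.25 to 0.45) and Itga3 of 0.28 (0.01 to 0.56). Itga5, the fibronectin receptor chain, went from 80.1 to 106 CPM, log2 ratio 0.40 (0.26 to 0.54). Itga9 went from 51.3 to 73.0 CPM, log2 ratio 0.51 (0.34 to 0.68), and Itga8 from 19.3 to 29.6 CPM, though Itga8 gave -0.12 under the stricter cell filter. Itgav, the alpha chain of vitronectin receptors, was level at 70.1 and 72.9 CPM, and Itga2b gave 0.06 (-0.54 to 0.66). Among the beta chains, Itgb1 went from 475 to 555 CPM, log2 ratio 0.23 (0.17 to 0.28), and Itgb5 from 49.1 to 71.1 CPM, log2 ratio 0.54 (0.36 to 0.71). Itgb4, which pairs with the alpha6 chain, stood at 37.5 and 35.4 CPM, log2 ratio -0.08 (-0.30 to 0.14), and Itgb3 gave 0.22 (-0.06 to 0.51).

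The 3 EC-like clusters carried these genes at different levels. They are named by their leading genes: Ackr1 and Csf3 (1709 WT and 2798 EC-iCD45KO cells), Gkn3 and Klk10 (1329 and 1239), and Gpihbp1 and Car4 (469 and 501). Itga1 and Itga6 were highest in the Gpihbp1 and Car4 cluster, with Itga1 at 514 and 718 CPM there against 147 and 178 CPM in the Ackr1 and Csf3 cluster and 85.2 CPM in the WT cells of the Gkn3 and Klk10 cluster, whose EC-iCD45KO cells stood above those of the Ackr1 and Csf3 cluster with overlapping counting intervals. Itgb4 was highest in the Gkn3 and Klk10 cluster at 63.1 and 73.4 CPM and lowest in the Gpihbp1 and Car4 cluster at 9.45 and 1.62 CPM. Itga5 had the same order as Itgb4, with 109 and 135 CPM in the Gkn3 and Klk10 cluster and 42.2 and 60.4 CPM in the Gpihbp1 and Car4 cluster.

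**Figure D3:**
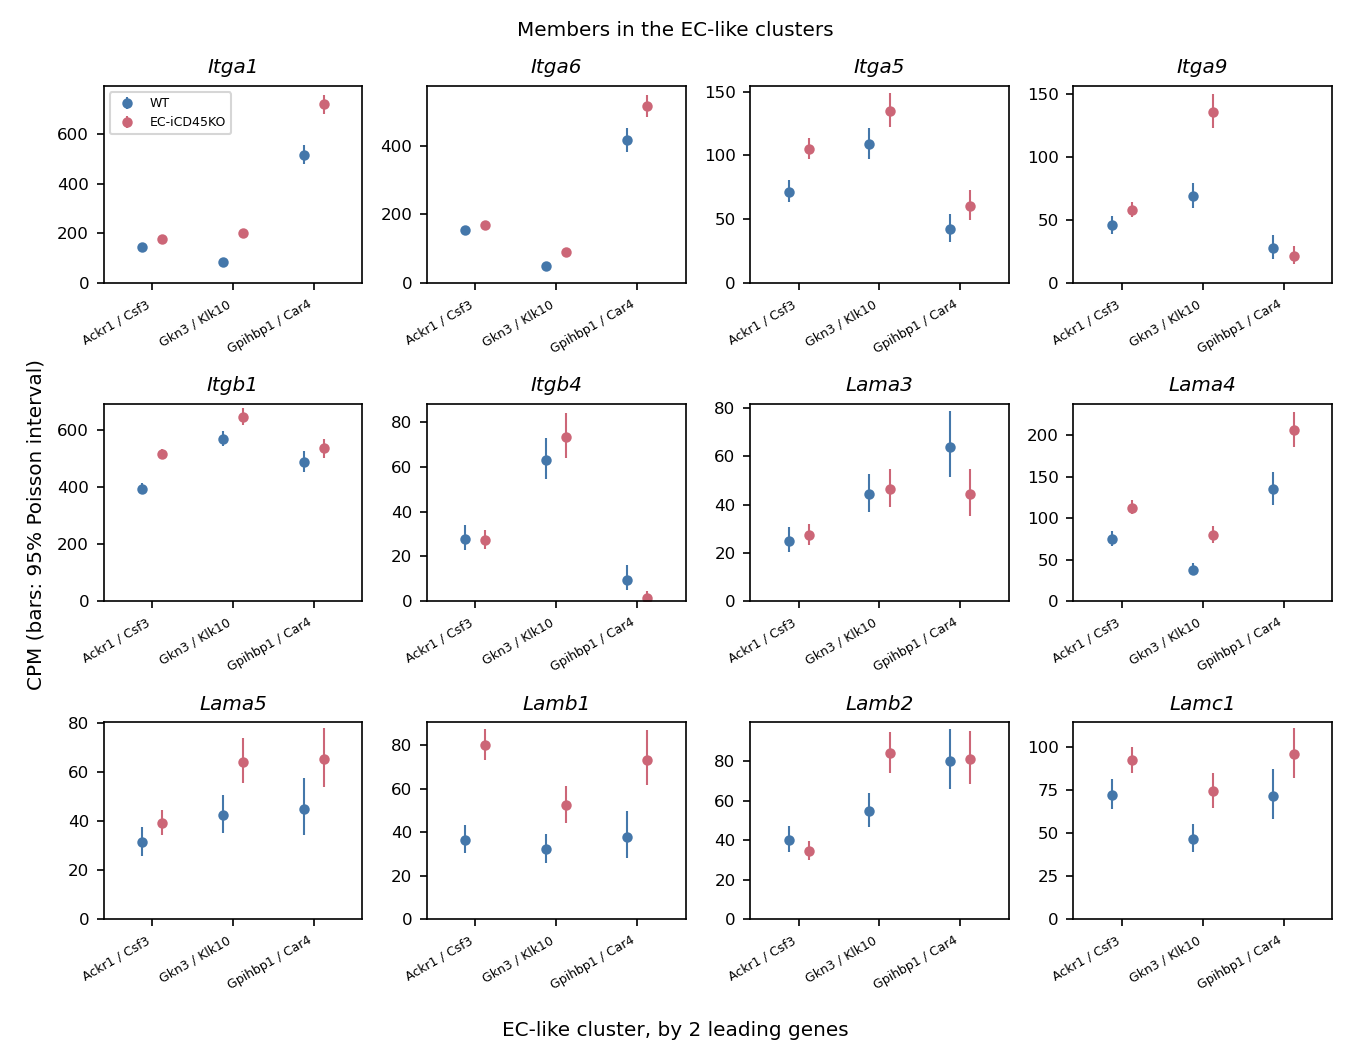
CPM of 12 members (panels, y axis from 0) in the 3 EC-like clusters (x axis, by 2 leading genes) in WT (blue) and EC-iCD45KO (red). Bars are 95% Poisson intervals of the UMI counts. Itga1, Itga6 and Lama4 are highest in the Gpihbp1 and Car4 cluster, Itgb4 is lowest there, and Lama4, Lamb1 and Lamc1 are higher in EC-iCD45KO in each cluster.

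For 5 members of the matrix group the counting interval lay above 0 in each of the 3 EC-like clusters: Itga1, Itga5, Lama4, Lamb1 and Lamc1. Lama4 went from 74.8 to 113 CPM in the Ackr1 and Csf3 cluster, from 37.9 to 79.4 CPM in the Gkn3 and Klk10 cluster and from 135 to 206 CPM in the Gpihbp1 and Car4 cluster. Itga1 differed most in the Gkn3 and Klk10 cluster, where its ratio was 1.23. SMC markers summed to 3237 CPM in WT and 5604 CPM in EC-iCD45KO in that cluster and pericyte markers to 141 and 338 CPM, a log2 ratio of 1.26, and their part in the member differences was not tested. Itga9 was higher in the Gkn3 and Klk10 cluster at 0.97 (0.73 to 1.22) but gave -0.36 (-1.03 to 0.32) in the Gpihbp1 and Car4 cluster.

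The 4 members at least 2-fold lower in EC-like cells each had their highest level in a lymphocyte class. Itga4 stood at 56.8 CPM in WT and 21.6 CPM in EC-iCD45KO, log2 ratio -1.40 (-1.63 to -1.17). Itgb7 stood at 27.5 and 13.4 CPM, log2 ratio -1.04 (-1.35 to -0.73), and Itgal at 12.8 and 3.71 CPM, log2 ratio -1.79 (-2.35 to -1.25). Lamb3 had 128 UMIs in WT and 13 in EC-iCD45KO, or 15.9 and 1.18 CPM, log2 ratio -3.76 (-4.71 to -2.93). All 4 intervals lay below 0 in each of the 3 EC-like clusters. The myeloid chains went the other way: Itgam from 28.6 to 55.7 CPM, log2 ratio 0.96 (0.74 to 1.19), and Itgax from 12.8 to 25.8 CPM, log2 ratio 1.01 (0.68 to 1.35).

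In SMC-like and fibroblast-like cells, which are not endothelial, the same 4 members were also lower. Itga4 gave -1.30 (-1.54 to -1.05) in SMC-like and -1.79 (-2.01 to -1.57) in fibroblast-like cells, and Lamb3 gave -2.76 (-3.56 to -2.03) and -2.62 (-3.26 to -2.02). In macrophage-like cells only Lamb3 of the 4 had an interval below 0, from 39 to 17 UMIs. There Itgb7 was higher, from 9.70 to 15.1 CPM, though it gave -0.13 at Leiden resolution 2, while the intervals of Itga4, at 51.3 and 55.5 CPM, and of Itgal held 0. Lamb3 had 8 UMIs in WT and 0 in EC-iCD45KO in lymphatic EC-like cells, where a count of 0, read as a limit of 3 counts, allows up to 5.41 CPM and the 95% interval reaches 6.66 CPM. In B-like cells, where Lamb3 was highest, its levels were 92.3 and 98.7 CPM. Itga4 there was level at 206 and 224 CPM.

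Markers of leukocytes moved with these members in EC-like cells. The 8 B markers summed to 1916 CPM in WT and 646 CPM in EC-iCD45KO, and the 10 T/NK markers, of which 9 were detected in each library, to 291 and 54.2 CPM. Klrb1c was at 0 in WT and Ncr1 at 0 in EC-iCD45KO. The 10 macrophage markers summed to 2776 and 3809 CPM and the 8 neutrophil markers to 73.5 and 193 CPM, with Ly6g at 0 in EC-iCD45KO. In EC-like cells Itga4 was 18.1% of its T/NK-like level in WT and 8.87% in EC-iCD45KO, and Itgam was 18.1% and 29.2% of its macrophage-like level. In the Gpihbp1 and Car4 cluster, where macrophage markers summed to 882 and 616 CPM, Itgam gave -0.66 (-1.69 to 0.34), against 1.14 (0.85 to 1.44) in the Ackr1 and Csf3 cluster, where they summed to 3801 and 5047 CPM. The part of other cells' RNA in these differences was not tested.

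**Figure D4:**
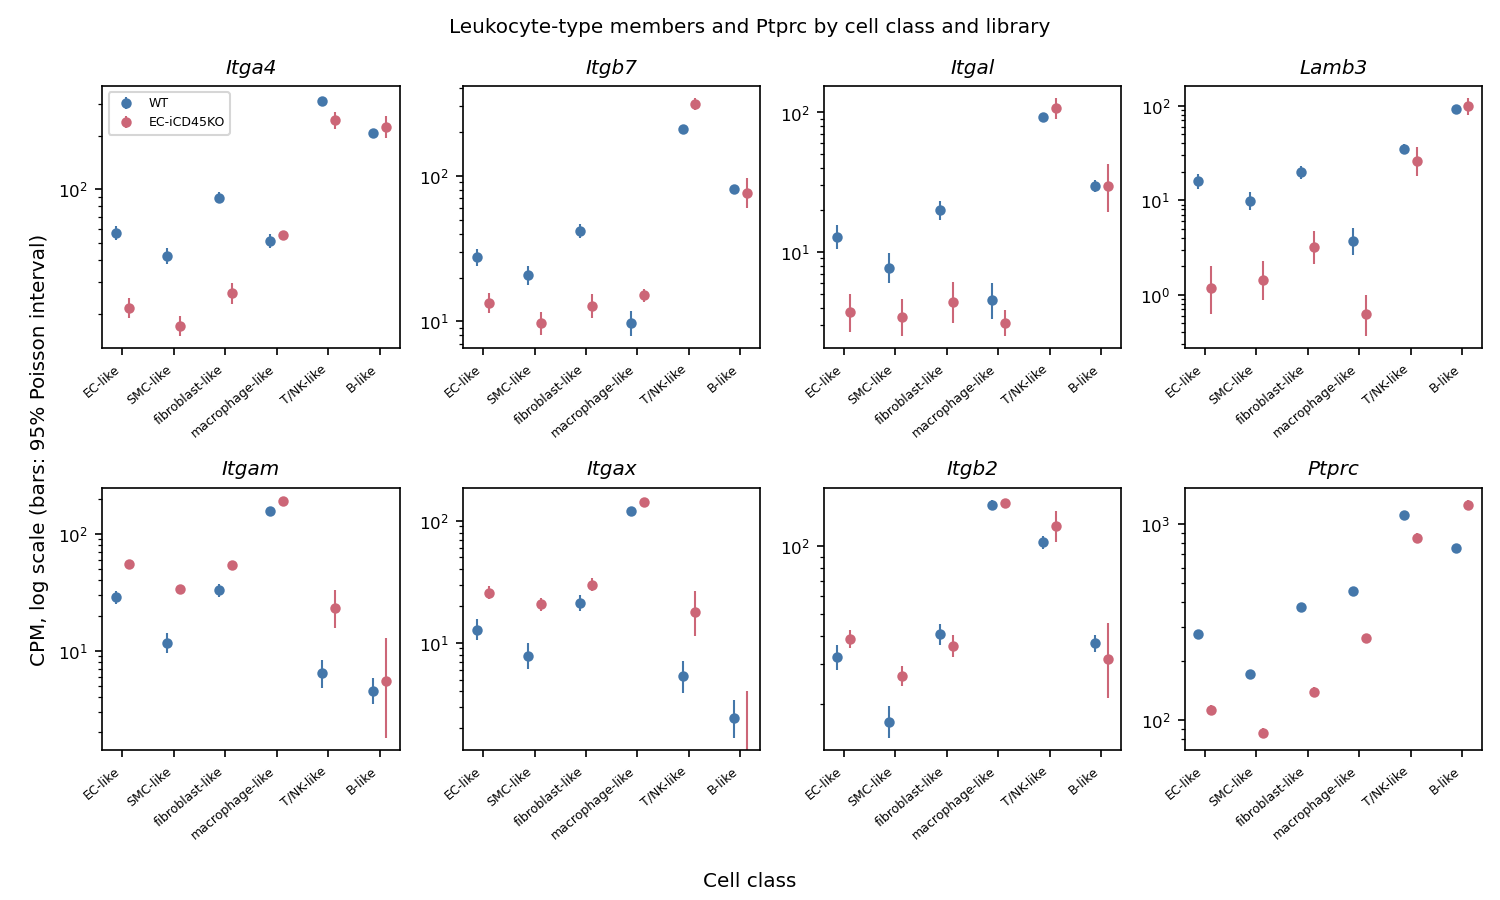
CPM on a log scale (y axis) of 7 members and of Ptprc in 6 cell classes (x axis), WT in blue and EC-iCD45KO in red, with 95% Poisson intervals. Itga4, Itgb7, Itgal and Lamb3 are lower in EC-iCD45KO in EC-like, SMC-like and fibroblast-like cells and lie far below their T/NK-like or B-like level. Itgax had 0 UMIs in the B-like cells of EC-iCD45KO, so only the upper end of its interval is drawn.

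To compare how many cells held a member, each cell was thinned to 1000 UMIs, which left 2622 WT and 2983 EC-iCD45KO EC-like cells and left out 885 and 1555. Itga1 was seen in 15.4% (14.1 to 16.9) and 19.8% (18.4 to 21.3) of EC-like cells, against 0.266% and 0.910% of macrophage-like cells, whose median depths were 3725 and 3811 UMIs before thinning against 1485 and 1329 in EC-like cells. Without thinning the EC-like shares were 24.6% and 29.6%. Lama4 was seen in 6.26% (5.36 to 7.25) and 8.08% (7.13 to 9.12) of EC-like cells and in 0 and 0.318% of macrophage-like cells.

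Cells with a UMI of a leukocyte chain were found in the mesenchymal classes as well. Itga4 was seen in 5.72% (4.86 to 6.68) and 2.55% (2.01 to 3.18) of EC-like cells, 6.66% and 1.77% of SMC-like cells and 8.70% and 2.88% of fibroblast-like cells. The unthinned EC-like shares were 10.4% and 4.52%. Itgam was seen in 2.82% (2.22 to 3.53) and 6.20% (5.36 to 7.13) of EC-like cells, 1.73% and 4.76% of SMC-like cells and 3.45% and 6.62% of fibroblast-like cells. The EC-like shares of both genes lay below the fibroblast-like ones in both libraries at this depth, by less than counting error except for Itga4 in WT. Those of Itgam lay above the SMC-like shares. Without thinning, Itgam was seen in 10.5% of the EC-like and 9.97% of the fibroblast-like cells of EC-iCD45KO.

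Lamb3 lies on chromosome 1 at 193207699 to 193343878 on the plus strand in GRCm38, the span given by GENCODE, and Hsd11b1 and G0s2 overlap that span on the opposite strand. Whether the counting used strand is not given in the sources used here, so reads from the overlap of these genes cannot be told apart. Hsd11b1 was also lower in EC-like cells, at 8.96 and 3.62 CPM, while G0s2 was higher, at 6.72 and 14.7 CPM. In B-like cells, where Lamb3 was highest, Hsd11b1 had 14.5 and 12.1 CPM and G0s2 had 1.36 and 1.10 CPM. The genes did not move together in every class: in fibroblast-like cells Hsd11b1 gave -0.14 (-0.30 to 0.02), at 82.6 and 74.8 CPM, where Lamb3 went from 19.8 to 3.22 CPM. In neutrophil-like cells G0s2 stood at 823 and 1188 CPM, where Lamb3 had 53.3 and 45.4 CPM. Itga4 overlaps Cerkl on the opposite strand, and Itga1 overlaps Pelo on the same strand. Cerkl had 3.36 and 2.08 CPM and Pelo 22.4 and 28.2 CPM in EC-like cells. Itgal, Itgam, Itgax and Itgad are neighbours on chromosome 7, with gaps of 727.5, 11.1 and 3.72 kb, yet Itgal was lower where Itgam and Itgax were higher.

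In SMC-like cells, 28 members reached the minimum. Of these, 3 were at least 2-fold higher (Itga1, Itgam and Itgax; 1.83% of all 10775 genes were) and 7 at least 2-fold lower (Itga10, Itga11, Itga4, Itgal, Itgb7, Lama2 and Lamb3; 3.2% of all genes were). The median log2 ratio was 0.38, beside -0.06 over all genes. Under a stricter cell filter (500 genes, 5% mitochondrial UMIs), where the class kept only its deeper cluster, the numbers were 1 and 4. With no doublet removal the number of lower members was 3. Leukocyte markers moved with the leukocyte chains here too: macrophage markers summed to 1216 and 2530 CPM and neutrophil markers to 70.1 and 156 CPM, while B markers summed to 1150 and 309.6 CPM and T/NK markers to 259.6 and 38.5 CPM. Over the alternatives, Itgam ranged from 0.64 to 1.65 and Itgax from 0.30 to 1.67. The part of these cells' RNA was not tested.

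The matrix-binding members of SMC-like cells divided into a higher and a lower set. Itga1 stood at 46.5 CPM in WT and 100.1 CPM in EC-iCD45KO, log2 ratio 1.11 (0.94 to 1.27). Itga9 stood at 145 and 258 CPM, log2 ratio 0.83 (0.74 to 0.92), and Itga7, the laminin receptor chain of muscle, at 20.4 and 35.4 CPM, log2 ratio 0.80 (0.54 to 1.05). Itga8 gave 0.43 (0.38 to 0.49), which became -0.05 with no doublet removal, Lama4 0.93 (0.74 to 1.13), Lama5 0.47 (0.27 to 0.67) and Lamb2 0.36 (0.26 to 0.46). The higher set held receptors of collagen, laminin and RGD ligands as well as laminin chains. On the lower side, Lama2 stood at 97.6 and 47.0 CPM, log2 ratio -1.05 (-1.21 to -0.90). Its ratio ranged from -1.21 to -0.54 over the alternatives, so it was not past 2-fold under all of them. The collagen receptor chains Itga10 and Itga11 stood at 14.0 and 6.93 CPM and at 12.5 and 5.94 CPM. Over the alternatives Itga10 ranged from -1.15 to -0.55, so it was not past 2-fold under all of them. Itgb8, the partner of alphav that binds latent TGF-beta, stood at 38.4 and 20.8 CPM, log2 ratio -0.89 (-1.12 to -0.65).

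The ratios of these members had the same signs in both SMC-like clusters, although the interval of Itga10 held 0 in the first. The clusters were led by S100g and Actg2 (1858 WT and 2717 EC-iCD45KO cells, with medians of 1199 and 1172 UMIs) and by Wnt16 and Itih4 (651 and 787 cells, with medians of 8098 and 9950 UMIs). Itga1 gave 1.06 in the first and 1.13 in the second. Lama2 went from 67.0 to 45.0 CPM in the first and from 113 to 48.1 CPM in the second. In the class as a whole, SMC markers summed to 18470 CPM in WT and 29060 CPM in EC-iCD45KO. Fibroblast markers summed to 9261 and 6498 CPM, pericyte markers to 941 and 1696 CPM and chondrocyte markers to 325.6 and 194.9 CPM. The part of these markers in the member differences was not tested.

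**Figure D5:**
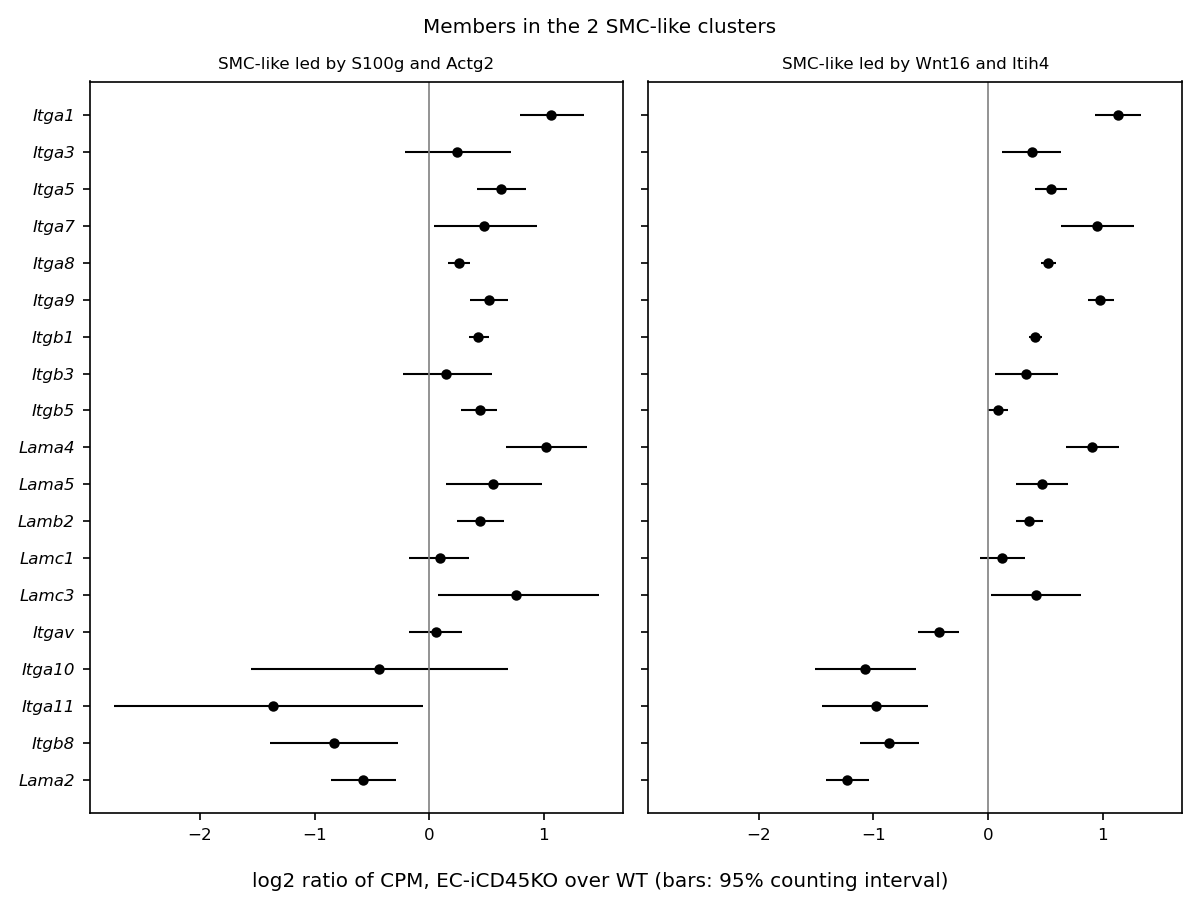
Log2 ratio of CPM, EC-iCD45KO over WT (x axis), of 19 members (rows) in the 2 SMC-like clusters (panels), with 95% counting intervals. Itga1, Itga9 and Lama4 lie right of 0 and Itga11, Itgb8 and Lama2 left of 0 in both clusters, while the interval of Itga10 holds 0 in the left panel.

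In fibroblast-like cells, 31 members reached the minimum. Of these, 2 were at least 2-fold higher (Itga2b and Itgb6; 1.97% of all 11182 genes were) and 5 at least 2-fold lower (Itga10, Itga4, Itgal, Itgb7 and Lamb3; 5.06% of all genes were). Itga10, at -1.12, was -0.51 under the stricter cell filter and -0.23 with no doublet removal. The median log2 ratio was 0.27, beside -0.04 over all genes. B markers summed to 2273 and 377 CPM in this class and T/NK markers to 522 and 80.9 CPM, beside the lower Itga4, Itgal and Itgb7. Beside the higher Itga2b, the platelet alphaIIb chain, with 32 and 65 UMIs, and Itgb6, with 26 and 85 UMIs, platelet markers summed to 1.07 and 2.86 CPM and kidney tubule markers to 32.6 and 74.0 CPM. The part of these markers was not tested. The clusters of the class differed in proportion between the libraries. The C7 and Sfrp4 cluster held 2111 WT and 2953 EC-iCD45KO cells. The Slurp1 and Mmp13 cluster, which had no fibroblast marker among its 10 leading genes, held 3264 and 860. Under the stricter cell filter a cluster of 3175 WT and 739 EC-iCD45KO cells led by Slurp1, with Mmp13 among its 10 leading genes, led its next class by too little to be named and stayed out of the class. With both clusters weighted equally, no member was counted as 2-fold higher, although the ratio of Itgb6 ranged from 1.07 to 1.92 over the alternatives. Lama2 was higher in the class, at 198.2 and 244 CPM, log2 ratio 0.30 (0.21 to 0.39), but lower within both clusters. Its ratio in the class was -0.27 under the stricter filter, where its WT level was 347 CPM, -0.32 with no doublet removal and -0.34 with clusters weighted equally. It went from 333 to 278 CPM in the C7 and Sfrp4 cluster, log2 ratio -0.26 (-0.36 to -0.16), and from 69.0 to 40.6 CPM in the Slurp1 and Mmp13 cluster, log2 ratio -0.77 (-1.24 to -0.32). The C7 and Sfrp4 cluster, with the higher Lama2 level, was the larger of the pair in EC-iCD45KO and the smaller in WT. Itga5, Itga9, Itgb1 and Itgb5 were higher within both clusters. Itga5 went from 44.9 to 74.3 CPM in the first and from 59.2 to 121 CPM in the second. Itgb8 was higher in the C7 and Sfrp4 cluster, at 22.7 and 43.9 CPM, log2 ratio 0.95 (0.62 to 1.30), which is the opposite of its direction in SMC-like cells.

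In macrophage-like cells, 13 members reached the minimum and none was past 2-fold, where 0.748% of all 9495 genes were higher and 1.5% lower. The median log2 ratio was 0.16, beside -0.03 over all genes. Itgam stood at 159 and 191 CPM, log2 ratio 0.27 (0.19 to 0.35), and Itgax at 119 and 144 CPM, log2 ratio 0.27 (0.18 to 0.36). Their common partner Itgb2 was level at 153 and 155 CPM. Itga6 gave 0.33 (0.22 to 0.45) and Itga9 0.29 (0.18 to 0.41). The largest ratio among the 13 was that of Itga8, at 3.65 and 7.03 CPM, log2 ratio 0.95 (0.44 to 1.49), which passed 2-fold under the stricter filter (1.05), at Leiden resolution 2 (1.15) and by means of single-cell CPM (1.12). SMC markers, summed over the 10 on the list, went from 124 to 231 CPM in this class, a log2 ratio of 0.90, and their part was not tested. Itgb1, at 349 and 358 CPM, and Lamc1, at 49.2 and 49.8 CPM, differed by less than counting error.

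Lymphatic EC-like cells, with 230 and 226 cells, had too few UMIs for most members. Itga9, the chain known for lymphatic valve formation, stood at 124 and 233 CPM, log2 ratio 0.91 (0.45 to 1.39). Itgb4 went from 8 to 39 UMIs, log2 ratio 2.02 (0.90 to 3.33), and Itga4 from 40 to 11 UMIs, log2 ratio -2.13 (-3.24 to -1.14). The interval of Lama4 touched 0.

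Genes that work with integrins and laminins were read from 3 lists in EC-like cells. Of 20 genes of integrin activation and the adhesion plaque, 19 reached the minimum, none was past 2-fold and the median log2 ratio was 0.15. Talin (Tln1), which activates integrins from inside the cell, stood at 208 and 220 CPM, the kindlin Fermt2 at 214 and 251 CPM and Lims2 at 242 and 276 CPM. Of 10 basement membrane partners and laminin receptors, all reached the minimum and 1 was 2-fold higher: Nid2, which links laminin to collagen IV, stood at 10.2 and 31.1 CPM, log2 ratio 1.61 (1.25 to 1.97). The 27 cells named above held 9.91% of its UMIs in EC-iCD45KO, and without them the ratio was 1.48. Hspg2, the perlecan gene, gave 0.28 (0.18 to 0.38), Sparc 0.46 (0.44 to 0.49), and Bcam, a laminin alpha5 receptor, -0.20 (-0.31 to -0.09). Of 16 other integrin ligands, 12 reached the minimum, with a median of -0.03. Edil3, an RGD ligand of alphav integrins, stood at 1.74 and 13.5 CPM, log2 ratio 2.95 (2.16 to 3.86). It was also higher in macrophage-like cells, at 6.24 and 28.6 CPM, in fibroblast-like cells at 2.11 (1.48 to 2.80) and in SMC-like cells at 1.45 (0.73 to 2.24). Fn1 stood at 373 and 347 CPM in EC-like cells, Spp1 at 1227 and 1609 CPM and Fbln5 at 411 and 280.0 CPM.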

How the data were processed

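The authors deposited matrices of whole-number UMI counts per gene and cell barcode, 1 for each of the 2 libraries, with no normalization. Cell Ranger 7.1.0 and the mm10 build are named in the submitters' processing notes, while the annotation, intron counting, strand and cell calling are not given in the sources used here. Barcodes were kept from 300 genes upward when mitochondrial UMIs did not exceed 10%, 39503 of 39849 in WT and 28960 of 30278 in EC-iCD45KO. Scrublet (scanpy 1.11.5) marked 2 and 0 cells with its own threshold and had not worked, so the top 10% of scores in each library were taken out.

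Both libraries were clustered together with no correction, on 2000 variable genes without the members, the related lists and Ptprc, 30 principal components, 20 neighbours and Leiden resolution 1 (leidenalg 0.10.2). Clusters were named from marker lists of 20 classes, by a mean log2 excess of at least 1 and a lead of 0.75 over the next class. The marker Ccl21a was not used, since its symbol names more than 1 row. Members, gene lists, thresholds and alternatives were chosen with earlier results of these data known. All 36 members and Ptprc could be named, and of each related list the 3 highest and those past 2-fold in EC-like cells.

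CPM, exact Poisson intervals, Clopper-Pearson intervals of shares and conditional binomial intervals of ratios were computed in Python 3.11.15 with scipy 1.17.1, after tests on simulated counts. Gene positions come from GENCODE M21 on GRCm38, in which 32158 of 32285 identifiers matched. Alternatives were a stricter cell filter (500 genes, 5% mitochondrial UMIs), no doublet removal, Leiden resolution 2, median-ratio scaling, leaving mitochondrial, ribosomal and haemoglobin genes out of the CPM, averaging CPM over single cells, adding 0.5 CPM in place of a minimum, other thinning, and clusters weighted equally, the last chosen for classes other than EC-like after seeing the data. Leaving out 27 EC-like cells of a cluster with no WT cell was also added after seeing the data.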

Additional observations from a re-analysis of the deposited data

Results flagged for a closer look

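Some members differed in opposite directions between cell classes, with counting intervals on both sides of 0. The differences between the classes were not tested. Lama2 was higher in EC-like cells (0.76) and lower in SMC-like cells (-1.05), which are 1.81 apart on the log2 scale. It was also higher in fibroblast-like cells as a class (0.30), 1.35 above SMC-like cells, although it was lower within both fibroblast-like clusters and gave -0.27 to -0.34 under 3 alternatives. Itgb8 was higher in fibroblast-like cells (0.91) and lower in SMC-like cells (-0.89), 1.8 apart. Itgb3, the platelet and endothelial beta chain of RGD receptors, was higher in SMC-like cells (0.27) and lower in fibroblast-like cells (-0.77), 1.04 apart, although in fibroblast-like cells it ranged from -1.38 to -0.15 over the alternatives. Its SMC-like levels of 29.6 and 35.8 CPM were followed by B-like cells in WT (26.9 CPM) and T/NK-like cells in EC-iCD45KO (33.3 CPM). B and T/NK markers were lower in the fibroblast-like cells of EC-iCD45KO, and their part was not tested. Itgb7 was higher in macrophage-like cells (0.63), from 9.70 to 15.1 CPM, but gave -0.13 at Leiden resolution 2. The value of 0.63 lay 1.67 above its ratio in EC-like cells, 1.73 above SMC-like and 2.34 above fibroblast-like cells.

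Members also differed among the cells that received no class name, 7828 in WT and 2128 in EC-iCD45KO, which no comparison above used. Itgam stood at 89.3 and 261 CPM there, a log2 difference of 1.55, and Itgb2 at 91.8 and 203 CPM, a difference of 1.14. Itga7 stood at 4.32 and 8.90 CPM, 1.04 higher. The make-up of these cells differed: the cluster led by Chil3, nearest to the macrophage markers, held 704 WT and 1377 EC-iCD45KO cells. A cluster nearest to the T/NK markers held 4106 and 303 cells, and a cluster led by Glycam1 and Umod held 1954 and 0.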

How the results depend on the processing

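No paired analysis was possible because the 2 groups consisted of 1 library each. Of the 99 log2 ratios of members at the minimum in 4 classes, 21 changed sign under at least 1 alternative. For 14 of these the counting interval held 0, and for 7 it did not. Under the stricter filter Itga8 in EC-like cells gave -0.12, Itga6 and Itgb2 in SMC-like cells -0.63 and -0.29, and Lama2 in fibroblast-like cells -0.27. With no doublet removal Itga8 and Itgav in SMC-like cells gave -0.05 and 0.03 and Lama2 in fibroblast-like cells -0.32, and with clusters weighted equally Lama2 gave -0.34 there. At resolution 2 Itgb7 in macrophage-like cells gave -0.13. No median changed sign. The members' median log2 ratio ranged from 0.25 to 0.42 for EC-like cells and from 0.22 to 0.42 for SMC-like cells. For fibroblast-like cells it ranged from 0.11 to 0.42, and for macrophage-like cells from 0.14 to 0.22. The number of members past 2-fold higher in EC-like cells (2) was 1 with no doublet removal, without mitochondrial, ribosomal and haemoglobin genes, with no minimum, with clusters weighted equally and without the 27 cells of a cluster found only in EC-iCD45KO, and 0 at Leiden resolution 2. In SMC-like cells the 3 higher members became 1 under the stricter filter and 5 by means of single-cell CPM, and the 7 lower members became 4 under the stricter filter, 3 with no doublet removal and 4 at resolution 2. In fibroblast-like cells the 2 higher members became 1 without mitochondrial, ribosomal and haemoglobin genes, 1 with no minimum and 0 with clusters weighted equally. The lowest ratio of Itgb6 there over the alternatives was 1.07, still past 2-fold. In macrophage-like cells the count of higher members went from 0 to 2 under the stricter filter, 1 with no doublet removal, 1 at resolution 2 and 2 by means of single-cell CPM, and that of lower members to 1 with no minimum. The cause was not tested for any of these values. Thinned to 2000 UMIs, Itga4 was seen in 10.1% of WT and 3.41% of EC-iCD45KO EC-like cells and Itgam in 4.91% and 8.40%, and without thinning in 10.4%, 4.52%, 5.45% and 10.5%. Itga4 in EC-like cells ranged from -1.66 to -1.25, Lamb3 from -4.19 to -3.29 and Lamb1 from 0.92 to 1.05, and Lama2 in SMC-like cells from -1.21 to -0.54. Itga10 in fibroblast-like cells ranged from -1.16 to -0.23 and Itga2b there from 0.47 to 1.18. Itga9 in SMC-like cells, 0.83, was 0.35 with no doublet removal. Of 72 values of 24 levels under the other filters and clusterings, 41 stayed within the counting interval, and the largest move was 1.75-fold, for Lama2 in WT fibroblast-like cells. Depth limits Lama1, Itgad and, in each class, the members under 5 CPM, for which a few UMIs set the ratio.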
